A study of Mus musculus with 68 samples.

Results

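CFU-E libraries of mouse bone marrow were compared with BFU-E libraries, as replicates 1 to 3 of each population in the stage series, over all genes of the deposited count table. These 6 libraries are 6 of the 38 of that series and of the 68 in both series of the study, and CFU-E replicates 4 and 5 were kept out of the comparison and used only as a check on direction. The study sequenced total RNA of erythroid cells enriched from bone marrow by flow cytometry, and the labels of these samples give the population, the tissue and the replicate number, with no strain, sex, age, genotype or sorting gate. The same step was also measured in 3 WT CFU-E and 3 WT BFU-E libraries of a second series, which compares WT with GS-KO cells and shares no library with the first.

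BFU-E (burst-forming units, erythroid) are the earliest progenitors committed to the red cell lineage and are named for the large, late colonies they form in culture. CFU-E (colony-forming units, erythroid) descend from them, form small colonies quickly and depend on erythropoietin for survival. In the textbook account this step goes with the loss of genes of multipotent progenitors, gain of the transferrin receptor and faster division, before hemoglobin accumulates. Each sample is a population, so a higher level of a transcript in every cell and a larger share of cells that carry it cannot be told apart here.

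Total counts ran from 6636216 to 11472763 in BFU-E, from 6999737 to 10399863 in CFU-E replicates 1 to 3 and were 5193098 and 4998892 in replicates 4 and 5. Levels are given as CPM, counts per 1000000 after TMM scaling. The triplicates were close to each other, with a biological coefficient of variation of 3.86%, and the labels do not say whether they came from separate mice, so each p-value speaks only of the spread among these libraries, which may be technical. CFU-E replicates 4 and 5 stood apart. Xist, the RNA that coats the inactive X, was at 748 and 692 CPM in them and at 3.37, 4.55 and 4.84 CPM in replicates 1 to 3, while the Y-linked Ddx3y was at 0 and 0 CPM against 104, 99.7 and 91 CPM. The 79 cytosolic ribosomal protein genes in the table sum to 48988 to 49764 CPM in the 3 BFU-E libraries and 47884 to 48138 CPM in CFU-E replicates 1 to 3, and to 118456 and 118956 CPM in replicates 4 and 5. BFU-E libraries carried Ddx3y at 90.1, 95.6 and 92.8 CPM and Xist at 2.98, 3.25 and 3.81 CPM, so in this respect the 6 libraries were alike. The part of sex, library set and RNA composition in the distance between replicates 1 to 3 and 4 to 5 cannot be told apart.

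Of the 24059 gene symbols, 10831 passed the filter on low counts and were tested. At an adjusted p under 0.05, 7303 (67.4%) differed, 3570 higher in CFU-E (33.0%) and 3733 lower (34.5%), with a median log2 fold change of -0.01. Because so many genes pass in libraries this close, a second test asked for a change beyond 2-fold. It called 226 genes higher in CFU-E (2.09%) and 922 lower (8.51%). Large changes in this fit were therefore mostly falls, as they were with RLE factors (227 higher, 922 lower) and library totals (210 higher, 1001 lower). The balance did not hold in the fit of all 38 libraries, which called 77 genes higher and 71 lower beyond 2-fold, or 31 and 8 with CFU-E replicates 4 and 5 as a group of their own. These percentages are the background against which the counts of each gene group below are to be read. The plot of change against abundance shows that rises and falls past the 2-fold test were found from under 1 CPM up to the levels of Car2, Myb and Malat1.

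**Figure D1:**
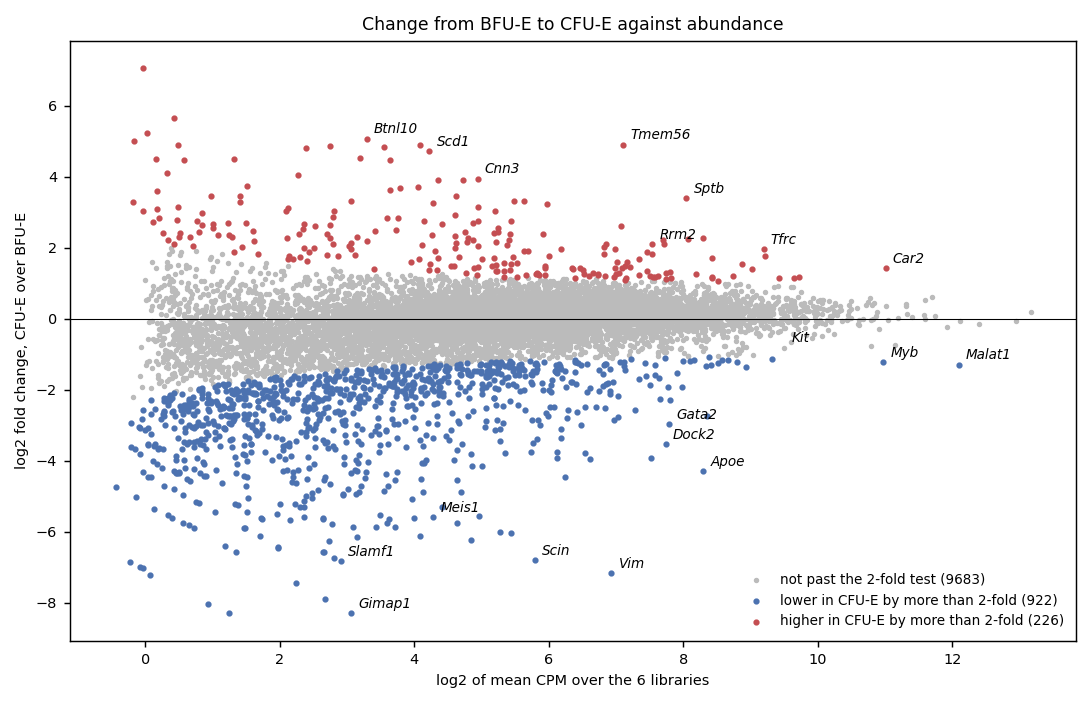
Each point is 1 of the 10831 genes tested, placed by the log2 of its mean CPM over the 6 libraries (horizontal) and its log2 fold change of CFU-E over BFU-E (vertical). The 922 blue genes fell and the 226 red genes rose by more than 2-fold at an adjusted p under 0.05, and Malat1, Myb and Car2 are among the most abundant of them.

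The 12 largest rises were taken among genes past the 2-fold test with a mean of at least 5 CPM in CFU-E. The rule also required no overlap between the 6 libraries and both CFU-E replicates 4 and 5 above all BFU-E libraries. Genes with a Gm, LOC or Rik symbol were left out, and the highest log2 fold change of all genes tested was 7.07. Btnl10, a butyrophilin-like gene, led the 12. Btnl10 was at 0.511, 0.565 and 0.587 CPM in BFU-E replicates 1 to 3 and at 18.4, 21.2 and 17.5 CPM in CFU-E replicates 1 to 3, a log2 fold change of 5.08 ± 0.26 (SE). Tmem56, which encodes a membrane protein, was the most abundant of the 12, at 7.92, 9.04 and 10.3 CPM in BFU-E and 266, 268 and 263 CPM in CFU-E (4.9 ± 0.07, adjusted p of the 2-fold test 2.6e-36). In both genes every CFU-E library lay above every BFU-E library, which the rule of choice required.

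Genes of lipid metabolism were among these 12. Scd1, the stearoyl-CoA desaturase that makes monounsaturated fatty acids, was at 0.596, 2.26 and 1.61 CPM in BFU-E and 35.6, 37.6 and 34.4 CPM in CFU-E (4.73 ± 0.20). Fads3, of the fatty acid desaturase family, went from a mean of 2.58 to 38.3 CPM (3.91 ± 0.16), Ppap2a, a phosphatidic acid phosphatase, from 0.469 to 12.9 CPM (4.86 ± 0.31), and Sec14l2, a lipid-binding protein of the SEC14 family, from 1.12 to 32.9 CPM (4.89 ± 0.20). The long non-coding RNA Redrum rose from 0.493 to 9.10 CPM (4.04 ± 0.35). Pdia2, of the protein disulfide isomerase family, rose from 0.740 to 22.6 CPM (4.83 ± 0.24) and the calponin gene Cnn3 from 3.81 to 57.6 CPM (3.95 ± 0.13). The remaining members were Rab3il1, Rgcc and Sh3tc2, with log2 fold changes of 4.53, 4.49 and 3.91.

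Stretches of 250 bases before the RefSeq transcription start were available for some of these genes, and 4 that rose are shown because they hold AGATAA, a form of the site that GATA factors, the master regulators of red cell genes, bind. The letters come from RefSeq on GRCm38.p6, read 5′ to 3′ on the strand of the gene, with AGATAA or its reverse complement in capitals. Btnl10 (chr11:58917658-58917907, plus strand) holds 2 matches, whose first bases lie 178 and 14 bases before the start, Pdia2 (chr17:26199088-26199337, minus strand) 1 match at 40 bases, Rhd (chr4:134864286-134864535, plus strand) 1 at 43 and Trim10 (chr17:36869324-36869573, plus strand) 1 at 163.
Btnl10: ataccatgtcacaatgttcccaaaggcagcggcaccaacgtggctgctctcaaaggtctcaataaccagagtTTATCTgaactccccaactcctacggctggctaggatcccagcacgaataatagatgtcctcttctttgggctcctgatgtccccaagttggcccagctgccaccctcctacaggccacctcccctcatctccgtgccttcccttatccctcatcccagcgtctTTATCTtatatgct
Pdia2: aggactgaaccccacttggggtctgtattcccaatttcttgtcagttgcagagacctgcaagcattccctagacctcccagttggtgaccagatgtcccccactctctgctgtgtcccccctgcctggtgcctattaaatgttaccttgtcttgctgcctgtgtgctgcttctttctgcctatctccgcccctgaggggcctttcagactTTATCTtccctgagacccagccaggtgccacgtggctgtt
Rhd: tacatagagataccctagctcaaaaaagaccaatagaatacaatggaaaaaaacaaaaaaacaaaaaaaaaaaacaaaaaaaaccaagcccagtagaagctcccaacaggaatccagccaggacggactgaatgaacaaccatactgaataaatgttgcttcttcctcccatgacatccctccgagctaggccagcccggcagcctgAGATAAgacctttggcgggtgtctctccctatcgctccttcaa
Trim10: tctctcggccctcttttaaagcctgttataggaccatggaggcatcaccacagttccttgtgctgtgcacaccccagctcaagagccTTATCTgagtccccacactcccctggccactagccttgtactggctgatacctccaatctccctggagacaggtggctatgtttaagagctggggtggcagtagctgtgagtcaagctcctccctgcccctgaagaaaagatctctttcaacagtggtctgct

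Rhd encodes a Rhesus blood group membrane protein and rose from 49.3 to 177 CPM (1.84 ± 0.06), and Trim10, a tripartite motif gene of maturing red cells, rose from 3.70 to 35 CPM (3.27 ± 0.16). Of the 226 genes higher beyond 2-fold, 151 had such a stretch, and AGATAA was found on either strand in 17 of them (11.3%). The share was 7.37% (52 of 706) among genes lower beyond 2-fold, 5.68% (467 of 8218) among all genes tested and 10.3% (2771 of 27025) among all RefSeq stretches of this length. The ETS core CCGGAAGT was held by 1.32% of the higher and 1.84% of the lower genes against 6.74% of the genes tested, while CCNCNCCC, the form bound by KLF factors, was held by 65.6%, 68.7% and 63.7%. Among all RefSeq stretches CCGGAAGT was held by 2.93% and CCNCNCCC by 45.6%. A match is a description of letters and not a site in use, and these shares were not tested.

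**Figure D2:**
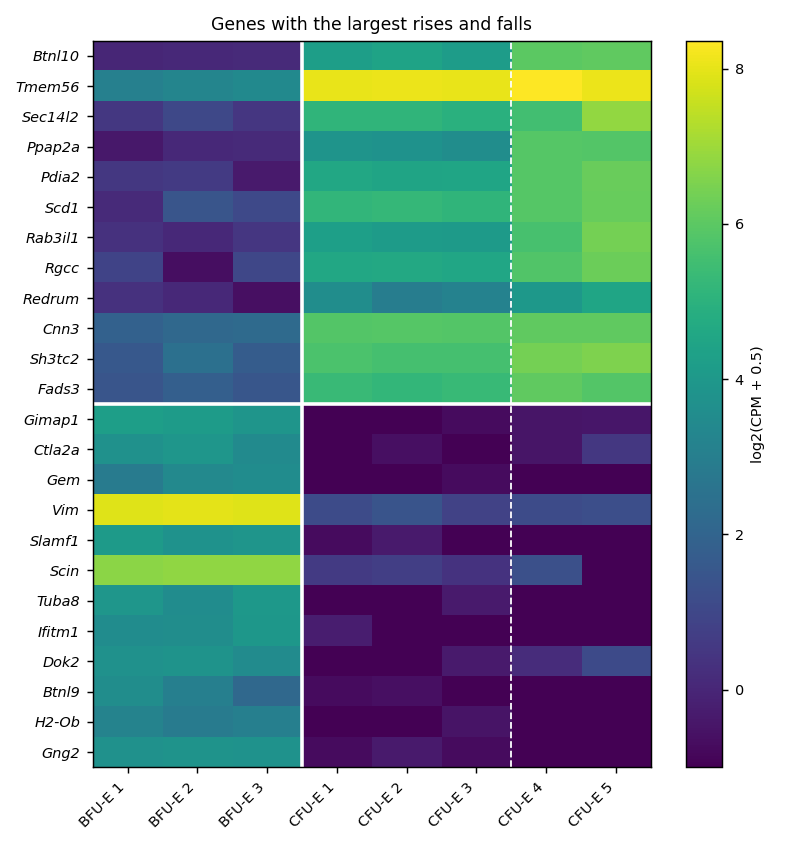
Colour gives log2(CPM + 0.5) of each of the 12 genes with the largest rises (above the white line) and the 12 with the largest falls (below it) in BFU-E replicates 1 to 3, CFU-E replicates 1 to 3 and, right of the dashed line, CFU-E replicates 4 and 5. CFU-E replicates 4 and 5 were used to choose these genes, and the rule of choice required no overlap between BFU-E and either set of CFU-E.

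The largest falls left almost no counts in CFU-E replicates 1 to 3. Vim, the intermediate filament vimentin, was at 239, 249 and 238 CPM in BFU-E and 1.69, 2.20 and 1.28 CPM in CFU-E (-7.17 ± 0.10, adjusted p of the 2-fold test 1.8e-37). Scin, the actin-severing protein scinderin, was at 107, 112 and 110.4 CPM in BFU-E and 1.01, 1.18 and 0.790 CPM in CFU-E (-6.80 ± 0.14). For 9 of the 12 CFU-E replicates 1 to 3 held 3 counts or fewer in all, so a ratio of counts, adjusted for library size, is given in place of a fitted fold change. Gimap1, a GTPase of the immune-associated family, had 436 counts against 1, a ratio of 439 (95% counting interval 78.4 to 17400.0). For Slamf1, the SLAM receptor CD150 of stem cells and early progenitors, the numbers were 389 counts against 3, a ratio of 131 (95% counting interval 44.4 to 636). Ctla2a had 328 counts against 1, a ratio of 330.0 (95% counting interval 58.9 to 13100.0), and the GTPase gene Gem had 230 counts against 1, a ratio of 232 (95% counting interval 41.2 to 9190.0). The interferon-inducible membrane gene Ifitm1 had 314 counts against 3, a ratio of 105 (95% counting interval 35.8 to 514). Dok2, a docking protein below receptor kinases, had 318 counts against 3, a ratio of 107 (95% counting interval 36.2 to 521). The tubulin gene Tuba8, the butyrophilin-like gene Btnl9 and the MHC class II gene H2-Ob each had 2 or 3 counts in CFU-E against 358, 217 and 204 in BFU-E. Gng2, a G protein gamma subunit, fell from 13.1 to 0.168 CPM (-6.27 ± 0.37).

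In CFU-E replicates 1 to 3, transcription factors of the red cell program changed little beside those of stem and progenitor cells. Gata2, the GATA factor of early progenitors, was at 393, 397 and 391 CPM in BFU-E and 52, 50.8 and 48.2 CPM in CFU-E (-2.97 ± 0.04, adjusted p of the 2-fold test 9.5e-34), and its level in CFU-E replicates 4 and 5 was 17.2 and 12.5 CPM. Gata1, the GATA factor that follows it on red cell genes, was at 192, 186 and 197 CPM in BFU-E and 217, 203 and 204 CPM in CFU-E (0.12 ± 0.04), a call that was lost with library totals in place of TMM, with a filter at a mean of 5 CPM and without CFU-E replicate 1. Klf1, which activates beta-globin and other red cell genes, was at 207, 208 and 189 CPM in BFU-E and 253, 252 and 253 CPM in CFU-E (0.33 ± 0.04), and Tal1, a partner of GATA factors, at 255, 243 and 251 CPM in BFU-E and 295, 297 and 295 CPM in CFU-E (0.24 ± 0.03). The BFU-E and CFU-E values of Klf1 and Tal1 did not overlap, yet neither passed the 2-fold test. Both calls were lost with CFU-E replicates 4 and 5 added (adjusted p 0.068 and 0.053 in edgeR), as was that of Gata1 (0.13). The log2 fold changes were larger in that fit, at 1.06 for Klf1, 0.44 for Tal1 and 0.36 for Gata1. Gata1, Klf1 and Tal1 also lost their calls in the fit of all 38 libraries.

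Zfpm1, the GATA cofactor FOG1, passed no threshold (-0.04 ± 0.03; with library totals or a filter at a mean of 5 CPM it was called lower), while Nfe2, an activator of globin and platelet genes, fell from 162 to 67.4 CPM (-1.27 ± 0.06), as did the corepressor Cbfa2t3 from 360.0 to 176 CPM (-1.03 ± 0.04). E2f2, an E2F factor of red cell precursors, rose from 18.6 to 40.9 CPM (1.14 ± 0.11) and Sox6 from 16.6 to 25.9 CPM (0.62 ± 0.12). Of the 28 genes in this group, among them the ubiquitin enzyme gene Trim58, 13 rose and 11 fell, and 1 fell beyond 2-fold. Their median log2 fold change was 0.04 with TMM and -0.04 with library totals, so it has no settled sign.

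Of the 28 stem and progenitor transcription factors 23 were tested and 18 of these fell beyond 2-fold (78.3%, beside 8.51% of all genes), with a median of -2.68. Meis1, a partner of HOX proteins, was at 37.6, 36.4 and 39.9 CPM in BFU-E and 0.449, 0.734 and 1.09 CPM in CFU-E (-5.59 ± 0.20). Fli1, the ETS factor that drives megakaryocytes, went from 48 to 4.27 CPM (-3.52 ± 0.15), and Erg from 15.6 to 0.536 CPM (-4.80 ± 0.29). The MYC family gene Mycn had 168 counts against 3, a ratio of 56.4 (95% counting interval 19 to 276). Smaller falls were those of Runx1 (-0.75 ± 0.06) and Runx3 (-0.86 ± 0.06), both core regulators of blood formation. Myb, required for progenitor proliferation, was at 2844, 2812 and 2813 CPM in BFU-E and 1210.5, 1209.6 and 1201 CPM in CFU-E (-1.23 ± 0.02), and Myc went from 603 to 328 CPM (-0.88 ± 0.03), below the 2-fold test.

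Of 13 myeloid and lymphoid factors tested 10 fell, 7 of them beyond 2-fold. Spi1, the ETS factor PU.1 of myeloid cells, was at 8.94, 14.7 and 8.80 CPM in BFU-E and 0.787, 0.147 and 0.790 CPM in CFU-E (-4.09 ± 0.34), and Cebpa, the C/EBP factor of granulocytes, went from 4.02 to 0.493 CPM (-3.08 ± 0.43). Another C/EBP gene moved the other way. Cebpd was at 0.0851, 0.283 and 0.293 CPM in BFU-E and 4.61, 4.99 and 4.64 CPM in CFU-E (4.49 ± 0.49, on 5 counts in all of BFU-E), and at 9.05 and 21.1 CPM in CFU-E replicates 4 and 5.

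**Figure D3:**
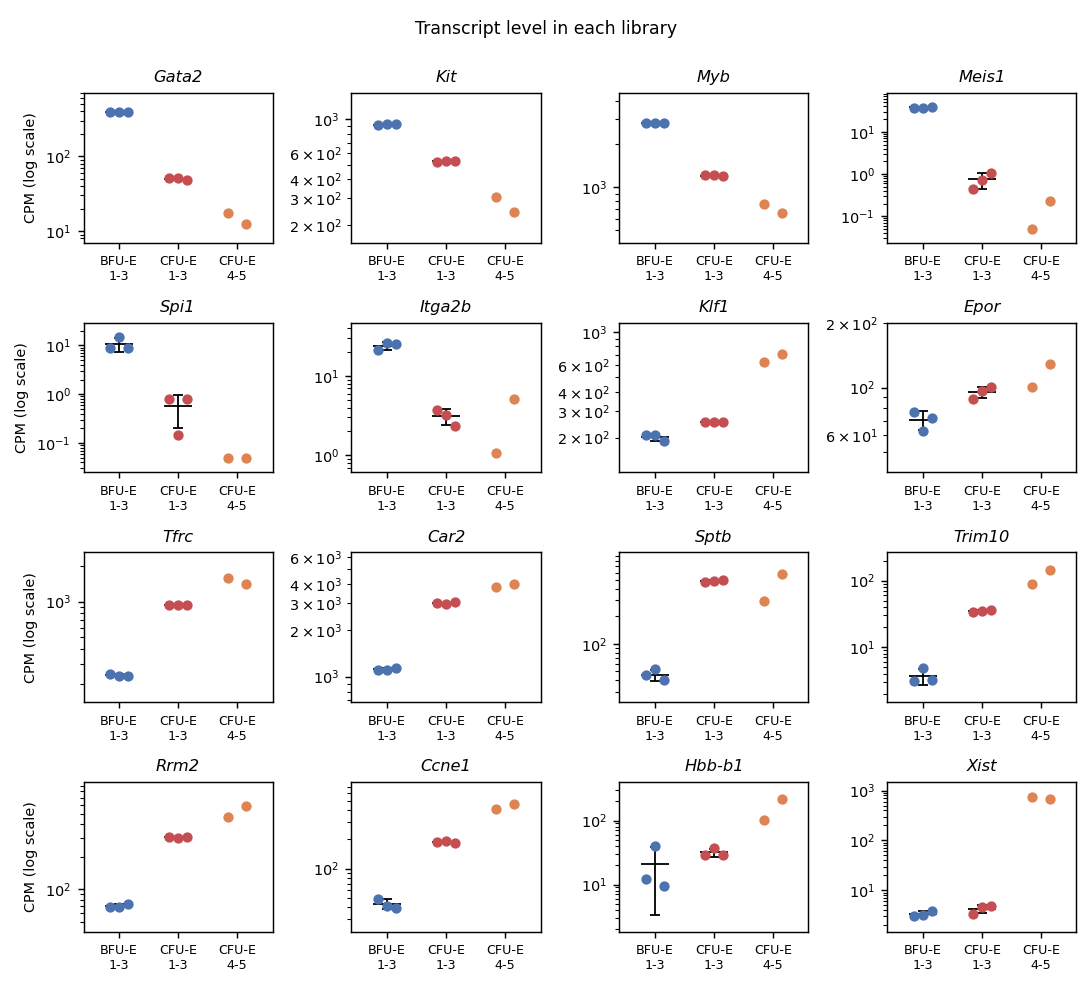
Each point is 1 library, with CPM on a log axis (a library at 0 is drawn at 0.05), for BFU-E replicates 1 to 3, CFU-E replicates 1 to 3 and CFU-E replicates 4 and 5, and black lines give the mean ± SD of each group of 3. In Gata2, Kit, Myb, Tfrc, Car2, Rrm2 and Ccne1 replicates 4 and 5 lie beyond replicates 1 to 3 on the side away from BFU-E, and Hbb-b1 shows BFU-E replicate 2 apart from the other BFU-E libraries.

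Receptors for growth factors mostly fell. Kit, the receptor for stem cell factor that both progenitors need, was at 913, 926 and 929 CPM in BFU-E and 522, 532 and 526 CPM in CFU-E (-0.81 ± 0.03). Epor, the erythropoietin receptor, was at 76.5, 62.3 and 72.3 CPM in BFU-E and 88.8, 96.4 and 100.3 CPM in CFU-E (0.42 ± 0.07), so all 3 CFU-E libraries lay above all 3 BFU-E libraries by less than 2-fold. Of 34 receptor genes 23 were tested, and 20 fell, 9 of them beyond 2-fold. Among these were Pdgfrb, the receptor for platelet-derived growth factor (30.5 to 0.859 CPM), Tek, the angiopoietin receptor of stem cells and endothelium (7.84 to 0.379 CPM), Il17ra, a subunit of the interleukin 17 receptor (288 to 95.5 CPM, -1.60 ± 0.04) and Tnfrsf1a, the main receptor for tumor necrosis factor (13.3 to 1.89 CPM). Il1r1, the receptor for interleukin 1, was at 1.87, 4.52 and 2.64 CPM in BFU-E and 10.6, 9.69 and 9.77 CPM in CFU-E (1.80 ± 0.25) and was the receptor gene of this group that rose beyond 2-fold.

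Of 27 genes of the KIT, RAS and MAP kinase pathway, Kit itself among them, 15 fell and 7 rose. Those past the 2-fold test were falls, among them the RAS exchange factor Rasgrp2 (10.9 to 0.337 CPM, -5.06 ± 0.36) and the feedback inhibitors Dusp6 (20.3 to 5.71 CPM, -1.79 ± 0.17) and Spry2 (10 to 3.0 CPM, -1.72 ± 0.22). Egr1, an immediate early gene induced by this pathway, was at 42.4, 40.5 and 52.8 CPM in BFU-E and 2.36, 2.64 and 3.46 CPM in CFU-E (-3.97 ± 0.16). In the group of immediate early genes 14 of 18 tested fell, 3 beyond 2-fold, but only 5 of the 14 had both CFU-E replicates 4 and 5 below every BFU-E library. All 29 genes of the list sum to 287 to 299 CPM in the 3 BFU-E libraries and 183 to 191 CPM in CFU-E replicates 1 to 3, and to 721 and 849.6 CPM in replicates 4 and 5. The GAB1 adaptor gene, Gab1, which links receptors to PI3 kinase, rose from 24.7 to 56.2 CPM (1.19 ± 0.09), whereas the SRC family kinase gene Lyn fell from 75.6 to 25 CPM (-1.60 ± 0.09).

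In the TGF-beta and BMP pathway 17 of 21 genes tested fell and 1 rose, with a median of -0.99. Receptors and a signal transducer were among the 5 that fell beyond 2-fold. Smad1, which carries BMP signals to the nucleus, went from 13.1 to 0.984 CPM (-3.67 ± 0.27), Acvr1b, the type I activin receptor, from 5.31 to 0.697 CPM (-2.99 ± 0.39), Tgfbr2, the type II TGF-beta receptor, from 59.7 to 12.8 CPM (-2.22 ± 0.10), and the co-receptor Tgfbr3 from 273 to 109.8 CPM (-1.32 ± 0.04). Of the Notch and Wnt genes 11 of 17 fell, with Notch1 (4.96 to 0.716 CPM) and its ligand gene Jag2 (2.69 to 0.135 CPM) past the 2-fold test and Notch2 at 578 to 362 CPM (-0.68 ± 0.03).

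Among surface antigens used to sort progenitors, Cd34 (3.11 to 0.276 CPM), Itga2b, the integrin CD41 (24.1 to 3.10 CPM), Cd9 (12.2 to 0.948 CPM), Cd48 (24.3 to 7.23 CPM) and Ptprc, the antigen CD45 (127 to 51.5 CPM), fell beyond 2-fold together with Slamf1. The 2 that rose beyond 2-fold were Tfrc, the transferrin receptor CD71 (1.96 ± 0.03), and Cd24a, the heat-stable antigen (268 to 919.6 CPM, 1.78 ± 0.03). Eng, the antigen CD105, was at 144, 145 and 154 CPM in BFU-E and 165, 162 and 167 CPM in CFU-E (0.16 ± 0.05). This call was lost with library totals and with CFU-E replicates 4 and 5 added, and those replicates were at 108 and 154 CPM. The labels do not give the gates of the sort, and an antigen in a gate would differ by choice.

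Adhesion and migration genes fell as a rule. Of 24 integrin and adhesion genes tested 13 fell (54.2%, beside 34.5% of all genes) and 5 rose (20.8%, beside 33.0%). Beyond 2-fold 12 fell and 0 rose. All 42 genes of the list sum to 2909 to 2972 CPM in BFU-E and 2645 to 2671 CPM in CFU-E replicates 1 to 3. In replicates 4 and 5 the sum was 3131 and 3085 CPM, though 12 of the 13 falls had both below every BFU-E library. The largest fall was that of Itgal, the alpha chain of the leukocyte integrin LFA-1, at 29.3, 35.6 and 35.3 CPM in BFU-E and 0.449, 0.294 and 0.592 CPM in CFU-E (-6.12 ± 0.23). Itgb1, the beta 1 integrin chain, rose from 305 to 446 CPM (0.55 ± 0.03) and Bsg, basigin, from 258 to 421 CPM (0.71 ± 0.04). Of 16 tested receptors for chemokines and lipid mediators 12 fell, including S1pr1, the sphingosine 1-phosphate receptor that guides exit from tissue (16.5 to 1.05 CPM, -3.97 ± 0.24). Cxcr4, the marrow-homing receptor, fell by less (30.3 to 23.5 CPM, -0.37 ± 0.11), and Ptger4, a prostaglandin E receptor, rose from 11.9 to 21.9 CPM (0.89 ± 0.14).

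Genes of the actin cytoskeleton fell broadly. Of 44 genes tested 31 fell, 20 of them beyond 2-fold (45.5%), with a median of -0.95. Besides Vim and Scin these held the leukocyte actin regulator Coro1a (25.3 to 1.03 CPM, -4.53 ± 0.22) and the class I myosins Myo1g (18.5 to 0.805 CPM) and Myo1f (3.42 to 0.190 CPM). Vcl, vinculin, rose from 140.1 to 313 CPM (1.16 ± 0.04) and lay at 145 and 201 CPM in CFU-E replicates 4 and 5, nearer to BFU-E. Dock2, the RAC activator of migrating blood cells, was at 390.3, 394 and 395 CPM in BFU-E and 33.9, 33.5 and 34.2 CPM in CFU-E (-3.53 ± 0.05), and Arhgdib, a GDP dissociation inhibitor of blood cells, went from 227 to 33.2 CPM (-2.78 ± 0.06). Its broadly expressed counterpart Arhgdia passed no threshold (0.01 ± 0.03).

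Genes of the red cell membrane rose unevenly. Of 37 genes of the membrane skeleton and the band 3 complex 27 rose, 12 beyond 2-fold (32.4%, beside 2.09% of all genes), and 6 fell. Sptb, the erythroid beta spectrin, was at 45.2, 52.7 and 40.2 CPM in BFU-E and 476, 479 and 493 CPM in CFU-E (3.39 ± 0.05, adjusted p of the 2-fold test 2.5e-35). Dmtn, the actin-bundling protein dematin, rose from 3.22 to 23.8 CPM (2.84 ± 0.18), Rhag, the Rhesus-associated channel, from 44.2 to 182 CPM (2.03 ± 0.06), Epb4.2, protein 4.2, from 6.82 to 27.8 CPM (2.07 ± 0.15) and Atp2b4, a plasma membrane calcium pump, from 70.7 to 216 CPM (1.60 ± 0.05). Among the central members 2 did not pass the test. Slc4a1, the band 3 anion exchanger, was at 9.45, 27.5 and 7.92 CPM in BFU-E and 13, 11.9 and 12.5 CPM in CFU-E (-0.21 ± 0.23), and Aqp1, the water channel, was at 774, 783 and 770.3 CPM in BFU-E and 758, 766 and 768 CPM in CFU-E (-0.02 ± 0.03). Without BFU-E replicate 2 Slc4a1 was called higher, by 0.51 on the log2 scale (adjusted p 0.0081 in edgeR's quasi-likelihood test), and with library totals or a filter at a mean of 5 CPM Aqp1 was called lower.

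Heme synthesis genes rose by different amounts along the pathway. Of 27 genes tested 18 rose and 4 fell. Among those past the 2-fold test were Uros (11.6 to 39.3 CPM, 1.73 ± 0.12) and Cpox (238 to 697 CPM, 1.55 ± 0.03), which encode enzymes from the middle of the pathway, with the porphyrin transporters Abcb6 (33.2 to 79.1 CPM, 1.26 ± 0.08) and Tmem14c (73.7 to 199.5 CPM, 1.44 ± 0.05). Alas2, the erythroid first enzyme, stayed low, at 5.62, 11.4 and 4.25 CPM in BFU-E and 9.33, 12.2 and 11 CPM in CFU-E (0.63 ± 0.22). This call was lost with DESeq2, with CFU-E replicates 4 and 5 added, and without BFU-E replicate 1 or 3. The housekeeping form Alas1 passed no threshold (-0.12 ± 0.09). Slc25a38, which brings glycine into mitochondria for that first step, rose from 28.4 to 59.7 CPM (1.09 ± 0.09).

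For iron, 21 of 26 genes rose, 3 beyond 2-fold. Tfrc was at 243, 238 and 236 CPM in BFU-E and 930.1, 929.9 and 935 CPM in CFU-E, with 1578 and 1419 CPM in replicates 4 and 5. Slc39a8, a zinc and iron transporter, rose from 20.9 to 78.6 CPM (1.91 ± 0.09) and Fth1, the ferritin heavy chain, from 516 to 1166 CPM (1.18 ± 0.03). The exporter gene Slc40a1, ferroportin, rose from 81.8 to 153 CPM (0.91 ± 0.06). Among red cell enzymes Car2, carbonic anhydrase 2, was at 1099, 1111 and 1142 CPM in BFU-E and 2996, 2988 and 3039.6 CPM in CFU-E (1.43 ± 0.02), whereas Car1, carbonic anhydrase 1, was at 2145, 2070.2 and 2153 CPM in BFU-E and 2114, 2117 and 2053 CPM in CFU-E and passed no threshold except, as lower, with library totals or a filter at a mean of 5 CPM. Prdx2, the peroxiredoxin that guards hemoglobin, rose from 214 to 478 CPM (1.17 ± 0.04).

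Globin transcripts were rare in both populations, and their comparison depended on single BFU-E libraries. Hbb-b1 was at 12.1, 40.7 and 9.39 CPM in BFU-E and 28.9, 37.2 and 29.4 CPM in CFU-E, so the groups overlapped, and Hba-a1 was at 10, 34.8 and 11.1 CPM in BFU-E and 33.8, 38.5 and 31.7 CPM in CFU-E. All 4 tested globin genes passed the first threshold as higher and 0 passed the 2-fold test, but without BFU-E replicate 2 all 4 passed it. The call of Hbb-b1 was also lost without BFU-E replicate 1 (0.32, adjusted p 0.24 in edgeR) and without BFU-E replicate 3 (0.38, adjusted p 0.084). With DESeq2 Hba-a1, Hba-a2, Hbb-b1 and Hbb-b2 did not pass the first threshold, at adjusted p-values of 0.18, 0.092, 0.43 and 0.091. Leaving out BFU-E replicate 2 also moved the count of late erythroid markers past the 2-fold test from 7 to 11 of 19, and that of the landmark genes from 2 to 4 of 26. Both counts include globin genes again, as Hba-a1, Hba-a2 and Hbb-b1 are late erythroid markers and Hba-a1 and Hbb-b1 landmark genes. Hba-a1 and Hba-a2, and Hbb-b1 and Hbb-b2, are near-identical copies, and how reads were shared between copies is not given in the sources used here.

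Division genes rose together by small amounts in CFU-E replicates 1 to 3. Of 46 DNA replication genes 44 rose (median 0.71), of 48 mitosis genes 46 (median 0.51) and of 49 replication-dependent histone genes 48 (median 0.54), beside 33.0% and a median of -0.01 for all genes. Few passed the 2-fold test, with 2, 0 and 3 members. Both CFU-E replicates 4 and 5 lay above every BFU-E library for 39, 29 and 47 of the genes that rose. Over all 48 mitosis genes the sum was 10077 to 10171 CPM in BFU-E and 14009 to 14077 CPM in CFU-E replicates 1 to 3. In replicates 4 and 5 this sum was 9460 and 11630 CPM. Rrm2, the regulated subunit of ribonucleotide reductase, was at 68.8, 68.5 and 72.9 CPM in BFU-E and 302, 299 and 301 CPM in CFU-E (2.10 ± 0.04), and Orc2, of the origin recognition complex, rose from 135 to 294 CPM (1.12 ± 0.04). Ccna2, cyclin A2, rose from 163 to 336 CPM (1.05 ± 0.04) and Mki67, the proliferation marker Ki-67, from 2528 to 3678 CPM (0.54 ± 0.02), though Mki67 stood at 1019.5 and 1735 CPM in CFU-E replicates 4 and 5, below BFU-E. Fam64a, a mitotic gene, went against the group, from 5.57 to 0.196 CPM (-5.04 ± 0.54). Histone genes share near-identical copies, and single members are uncertain for that reason.

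Of 30 G1 cyclins, kinases and inhibitors 14 rose and 8 fell. Ccne1, cyclin E1, was at 49, 41.5 and 38.9 CPM in BFU-E and 187, 192 and 185 CPM in CFU-E (2.10 ± 0.06), and Ccne2 rose from 20.3 to 60.3 CPM (1.57 ± 0.09). Ccnd2, cyclin D2, was at 352, 365 and 348 CPM in BFU-E and 122, 129 and 121 CPM in CFU-E (-1.52 ± 0.04), and its kinase partner gene Cdk6 fell from 539 to 274 CPM (-0.98 ± 0.03). Ccng2, an atypical cyclin of quiescent cells, fell from 14.5 to 1.32 CPM (-3.48 ± 0.26), and E2f4, the E2F factor of resting and red cells, rose from 265 to 523 CPM (0.98 ± 0.03). CFU-E replicates 4 and 5 lay at 415 and 461 CPM for Ccne1 and at 42.5 and 41.3 CPM for Ccnd2, further from BFU-E in both cases.

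Biosynthetic machinery also rose by small steps, with the ribosome as an exception. 59 of 70 mitochondrial ribosomal protein genes rose (median 0.45), as did 62 of 71 nuclear genes of the respiratory chain (median 0.46), 23 of 29 genes of the TCA cycle (median 0.48) and 21 of 23 cytosolic aminoacyl-tRNA synthetase genes (median 0.47), among them Hars (155 to 313 CPM, 1.0 ± 0.04). None of these members passed the 2-fold test. Of 77 cytosolic ribosomal protein genes 16 rose and 39 fell, with a median of -0.08. Rpl28 was at 399, 389 and 425 CPM in BFU-E, 317, 323 and 309 CPM in CFU-E replicates 1 to 3 and 1252 and 1348 CPM in replicates 4 and 5, so for this gene replicates 4 and 5 lay on the other side of BFU-E. None of the 39 falls of the group had both replicates below every BFU-E library (0 genes).

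Glycolytic genes changed by isoform. Pkm, the pyruvate kinase of most tissues, was at 17.2, 18.9 and 20.2 CPM in BFU-E and 1.12, 1.32 and 0.987 CPM in CFU-E (-4.04 ± 0.23). Pklr, which encodes the liver and red cell pyruvate kinase, was at 205, 203 and 231 CPM in BFU-E and 464, 467 and 489 CPM in CFU-E (1.16 ± 0.04). The platelet type of phosphofructokinase, Pfkp, fell from 32.6 to 14.6 CPM (-1.17 ± 0.12) while the muscle type, Pfkm, rose from 99.3 to 185 CPM (0.89 ± 0.05). Hk2, hexokinase 2, was at 26.2, 28.5 and 27.9 CPM in BFU-E and 6.07, 7.49 and 6.52 CPM in CFU-E (-2.05 ± 0.14), Slc2a1, the glucose transporter GLUT1, went from 1.92 to 0.201 CPM (-3.25 ± 0.61), and Pfkfb3, an activator of glycolysis, fell from 34.6 to 8.19 CPM (-2.08 ± 0.13). Txnip, a sensor that limits glucose uptake, fell from 335 to 69.2 CPM (-2.27 ± 0.04). Of 31 genes tested in the pathway 13 rose and 9 fell.

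Lipid genes also went both ways. Of 44 genes of fatty acid and phospholipid synthesis 8 rose beyond 2-fold (18.2%) and 2 fell. Acsl6, an acyl-CoA synthetase, was at 7.75, 8.48 and 7.48 CPM in BFU-E and 68.4, 64.9 and 62.9 CPM in CFU-E (3.05 ± 0.11), and the acyltransferase gene Mboat2 rose from 6.28 to 55.6 CPM (3.16 ± 0.12). Scd2, a desaturase closely related to Scd1, fell from 276 to 159 CPM (-0.79 ± 0.04). Of 34 genes of cholesterol synthesis and uptake 14 rose and 7 fell (median 0.20). Apoe, the lipid carrier apolipoprotein E, was at 581, 603 and 609.8 CPM in BFU-E and 26.6, 32.3 and 32.1 CPM in CFU-E (-4.30 ± 0.05), and of the sterol exporter genes Abca1 went from 76.1 to 5.56 CPM (-3.77 ± 0.11) and Abcg1 from 31.3 to 0.590 CPM (-5.63 ± 0.22). Abcg4, a close relative of Abcg1, rose from 13.8 to 71.9 CPM (2.40 ± 0.10). Synthesis enzymes such as Sqle (30.6 to 50.3 CPM) and Dhcr7 (25.2 to 40.9 CPM) rose without passing the 2-fold test.

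Amino acid and nucleotide genes gave further single changes. Asns, asparagine synthetase, was at 81, 74.3 and 87.3 CPM in BFU-E and 282, 288 and 298 CPM in CFU-E (1.84 ± 0.05), and Mthfd2, of mitochondrial one-carbon metabolism, rose from 21 to 53.6 CPM (1.34 ± 0.10). Gda, guanine deaminase, rose from 2.34 to 30.7 CPM (3.71 ± 0.17), Dck, deoxycytidine kinase, from 33.5 to 89.1 CPM (1.42 ± 0.08) and Odc1, which starts polyamine synthesis, from 202 to 385 CPM (0.93 ± 0.04). The amino acid transporter Slc7a6 fell from 7.61 to 0.630 CPM (-3.58 ± 0.34), and Slc16a10, which carries aromatic amino acids, rose from 54.5 to 129 CPM (1.27 ± 0.07).

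In protein turnover, 36 of 41 proteasome genes rose (median 0.50). The 4 that fell were the inducible subunits of the immunoproteasome and a subunit of its activator. Psmb8 was at 145, 165 and 150.3 CPM in BFU-E and 36.6, 37.7 and 35.9 CPM in CFU-E (-2.06 ± 0.07), Psmb9 fell from 26.5 to 11.5 CPM (-1.19 ± 0.13), Psme1 from 394 to 267 CPM (-0.56 ± 0.03) and Psmb10 from 33.3 to 22 CPM (-0.59 ± 0.10). CFU-E replicates 4 and 5 were at 20 and 42.9 CPM for Psmb9, on either side of the BFU-E mean, and at 49.8 and 56.1 CPM for Psmb10, above BFU-E. Interferon response and MHC genes fell in 29 of 40 cases, 9 beyond 2-fold, and 17 of the 29 had both CFU-E replicates 4 and 5 below every BFU-E library. The 48 genes of this list sum to 2757 to 2785 CPM in the 3 BFU-E libraries and 1823 to 1865 CPM in CFU-E replicates 1 to 3, and to 3429.7 and 3151 CPM in replicates 4 and 5, above BFU-E. Examples of the falls are the class I gene H2-K1 (560.0 to 252 CPM, -1.15 ± 0.03) and Irf1, an interferon regulatory factor (18 to 3.66 CPM, -2.28 ± 0.18). MHC genes share near-identical copies, which makes single values uncertain. Isg20, an interferon-induced exonuclease, rose from 27.6 to 58.8 CPM (1.08 ± 0.09). Ctse, the aspartic protease cathepsin E, was at 104, 111 and 109 CPM in BFU-E and 519, 518 and 525 CPM in CFU-E (2.28 ± 0.04).

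Death regulators split by member. Bcl2 was at 36.2, 30.7 and 30.4 CPM in BFU-E and 2.58, 1.76 and 3.55 CPM in CFU-E (-3.57 ± 0.17) and the inflammatory caspase gene Casp1 fell from 4.94 to 0.883 CPM (-2.42 ± 0.36). Bcl2l11, which encodes the death-promoting BIM, was at 20, 18.8 and 22.1 CPM in BFU-E and 71.1, 63.5 and 69.6 CPM in CFU-E (1.75 ± 0.09). Bcl2l1, the survival gene BCL-XL that erythropoietin induces, was at 7.75, 11.2 and 6.60 CPM in BFU-E and 12.2, 11 and 12.5 CPM in CFU-E (0.51 ± 0.18) and at 41.4 and 55.9 CPM in replicates 4 and 5. The call of Bcl2l1 was lost with replicates 4 and 5 added, and without BFU-E replicate 1 or 3 or CFU-E replicate 3. Of 37 genes of this group 13 rose (35.1%) and 16 fell (43.2%), beside 33.0% and 34.5% of all genes.

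Among chromatin genes more fell than rose in these libraries, with small median changes. Of 70 histone modifiers and remodellers 21 rose and 31 fell (median -0.09), and of 40 DNA methylation and Polycomb genes 10 rose and 21 fell (median -0.14). Within these lists Smarca2, the ATPase BRM of the SWI/SNF remodeller, was at 193, 181 and 167 CPM in BFU-E and 52.1, 52.9 and 48.6 CPM in CFU-E (-1.83 ± 0.06). H2afy, the histone variant macroH2A1, fell from 356 to 156 CPM (-1.19 ± 0.04) and the Polycomb gene Phc1 from 82.6 to 24.3 CPM (-1.77 ± 0.08). Whsc1, the H3K36 methyltransferase NSD2, rose from 120.2 to 276 CPM (1.20 ± 0.04). In the WT libraries 29 of 70 histone modifiers and remodellers were higher in CFU-E and 28 lower (median 0.03). There 13 of 40 DNA methylation and Polycomb genes were higher and 21 lower (median -0.17). Of 56 splicing factor genes 38 rose and 9 fell (median 0.23), while Celf2, a splicing regulator, fell from 114 to 20.7 CPM (-2.48 ± 0.08). Malat1, an abundant nuclear long non-coding RNA, was at 6292, 6372 and 5979 CPM in BFU-E and 2582, 2544 and 2474 CPM in CFU-E (-1.29 ± 0.02), and Neat1, the scaffold of paraspeckles, fell from 55.8 to 17 CPM (-1.72 ± 0.10).

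**Figure D4:**
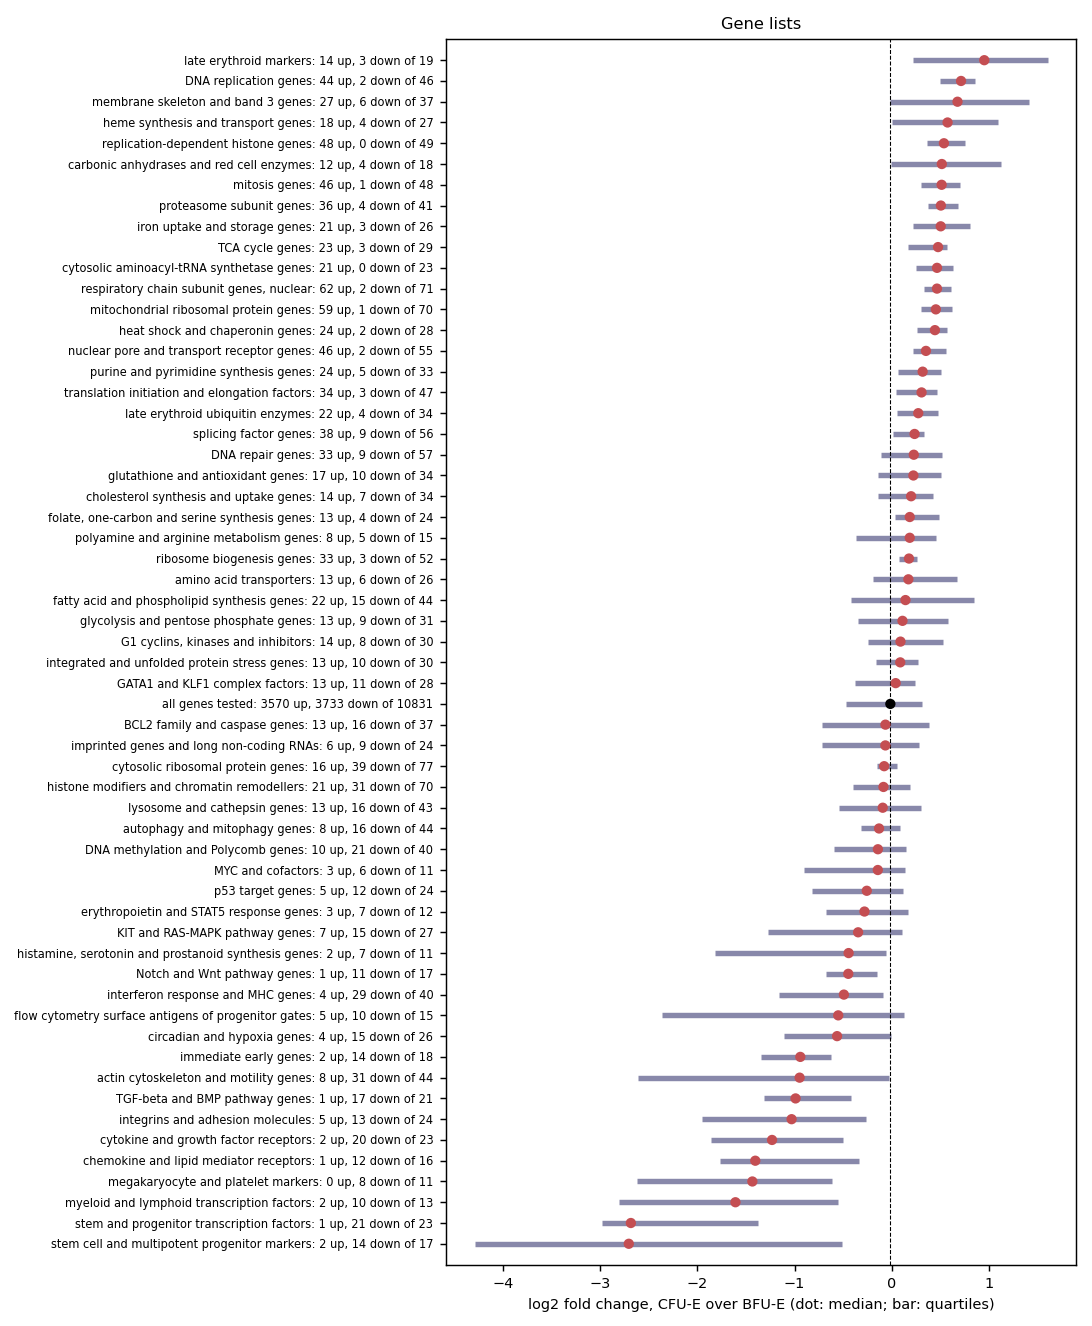
For each gene list shown, all with at least 10 tested members, the dot gives the median log2 fold change of CFU-E over BFU-E and the bar the range between its quartiles, with all genes tested as the black dot and dashed line, and the counts of members up and down at an adjusted p under 0.05 beside the name. Stem cell markers and stem and progenitor transcription factors lie lowest, near a median of -2.7, and late erythroid markers highest, at 0.95.

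Markers of other cell types were checked in the same libraries, and sums are over all list members in the table. Of 24 megakaryocyte and platelet markers 11 were tested and 8 fell. They sum to 339 to 352 CPM in the 3 BFU-E libraries and 97.5 to 109 CPM in CFU-E replicates 1 to 3, with Ppbp, Gp6, Selp and Clec1b at 0 counts in all 6. Of 20 mast cell and basophil markers 6 were tested and all fell, and Kit and Gata2 made up most of their summed 1564 to 1576 CPM in the 3 BFU-E libraries and 728 to 735 CPM in CFU-E replicates 1 to 3. The protease genes Mcpt8, Tpsab1 and Tpsb2 were at 0, whereas Cpa3, the mast cell carboxypeptidase, fell from 278 to 9 counts, Cma1 had 17 counts in BFU-E and 0 in CFU-E, and Gzmb 13 and 0. Ms4a2, the beta chain of the IgE receptor, had 57 and 18 counts.

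Neutrophil markers sum to 48.7 to 56.9 CPM in the 3 BFU-E libraries and 28.5 to 33 CPM in CFU-E replicates 1 to 3, and 6 of 8 tested fell, among them S100a9 (10.4 to 5.84 CPM). In the WT libraries 4 of 7 tested neutrophil markers were higher in CFU-E and 2 lower. Monocyte and macrophage markers sum to 130.2 to 143 CPM in the 3 BFU-E libraries and 166 to 187 CPM in CFU-E replicates 1 to 3, but Slc40a1, which rose, made up most of the sum. Of the 6 tested 4 fell, with Axl at 10.5 to 1.02 CPM, Cx3cr1 at 5.48 to 0.445 CPM and Cd163 at 26.1 to 11.4 CPM, and Cd14 was at 0 counts.

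T and NK cell markers sum to 12.1 to 17.9 CPM in the 3 BFU-E libraries and 0.734 to 0.899 CPM in CFU-E replicates 1 to 3, in BFU-E mainly Nkg7 (12.2 to 0.259 CPM), with Cd3e and Cd3g at 0. B cell markers sum to 2.83 to 4.09 CPM in the 3 BFU-E libraries and 2.36 to 3.55 CPM in CFU-E replicates 1 to 3, with Ms4a1 and Pax5 at 0. Blnk, an adaptor of B cell receptor signalling, rose from 9 to 64 counts and Cd79b, a chain of that receptor, had 38 and 2. The other lists were small. The eosinophil list rested on Siglec5 (24.2 to 0.498 CPM, 1 gene tested), and the endothelial and stromal list on Pecam1 (31 to 2.95 CPM) and Col1a2 (5.47 to 0.451 CPM), and all 3 genes fell beyond 2-fold. Eosinophil markers too low to test went both ways. Prg2 had 6 counts in BFU-E and 37 in CFU-E and Epx 0 and 17, while Ccr3 had 23 and 3. Of 3 dendritic cell markers tested 1 rose and 2 fell. The part of a few cells of these types in the falls of progenitor, adhesion and cytoskeletal genes was not tested.

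The direction of each call was then read in CFU-E replicates 4 and 5, against the same BFU-E libraries. Of the genes higher beyond 2-fold 219 of 226 (96.9%) had both replicates above the BFU-E mean and 217 had both above every BFU-E library. Of those lower beyond 2-fold 906 of 922 (98.3%) had both below the mean and 882 both below every library. At the first threshold 2751 of 3570 (77.1%) higher and 3155 of 3733 (84.5%) lower genes kept the side of the mean in both, and 457 and 252 had both on the other side. Mki67 and Rpl28 are examples of that last kind. Because the 2 comparisons share the 3 BFU-E libraries, these shares are a description and not a second test.

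The WT libraries of the second series, with other BFU-E libraries, gave a comparison that shares no library with the first. There 217 genes (2.0%) were higher and 953 (8.80%) lower beyond 2-fold of 10826 tested. Of the 1085 genes tested in both and past the 2-fold test here, all 1085 had the same sign and 934 (86.1%) also passed it there, which is 84.8% of the 1102 that passed there. At the first threshold 6956 of 7165 genes (97.1%) had the same sign, and 52 genes were called in both series in opposite directions. Gata2 was at 325, 326 and 318 CPM in WT BFU-E and 39.4, 40.3 and 41.6 CPM in WT CFU-E (-3.0 ± 0.04), Sptb at 37.9, 34.1 and 36 CPM in WT BFU-E and 495, 522 and 501 CPM in WT CFU-E (3.82 ± 0.04), and Pkm at 18.3, 21.4 and 21.1 CPM in WT BFU-E and 0.625, 0.877 and 0.997 CPM in WT CFU-E (-4.59 ± 0.22). The difference between the steps of the 2 series passed the interaction test in edgeR for Sptb (-0.42 ± 0.08, adjusted p 0.000101) and not for Gata2 (0.03 ± 0.07, adjusted p 0.90) or Pkm (0.56 ± 0.42, adjusted p 0.52).

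The size of the step differed between the series for 768 of 11267 genes (6.82%, interaction test, adjusted p under 0.05), and by more than 2-fold for 6 (0.0533%). Ctse had one of the clearest differences, 1.73 ± 0.04 on the log2 scale, with WT BFU-E at 478, 496 and 486 CPM and WT CFU-E at 706, 712 and 718 CPM. The WT BFU-E level of Ctse was thus higher than here. Gpr56, an adhesion receptor of stem and progenitor cells, fell by less here (-1.04 ± 0.04) than in WT (-1.91 ± 0.05). Dpp4, the surface peptidase CD26, fell by more here (-2.03 ± 0.09) than in WT (-0.81 ± 0.05). Hmgn5, a nucleosome-binding gene, fell here (-0.37 ± 0.04) and rose in WT (0.30 ± 0.02). The labels do not say whether the 2 series used the same gates, mice or sequencing runs, so these causes cannot be told apart.

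**Figure D5:**
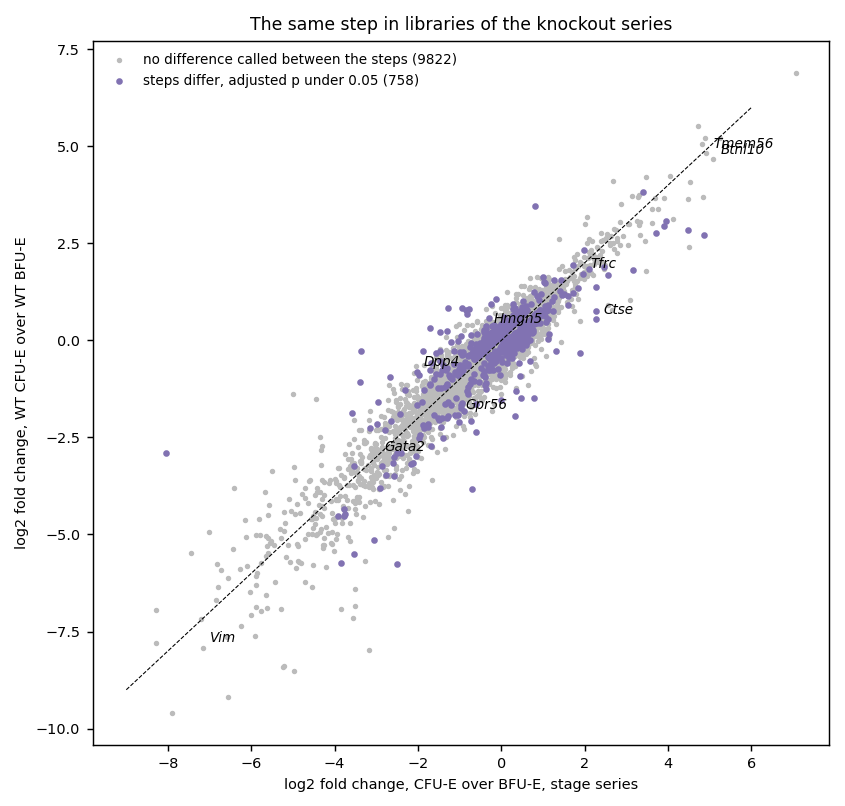
Each point is 1 gene tested in both series and in the test of the difference, with the log2 fold change of CFU-E over BFU-E in the stage series (horizontal) against that in the WT libraries (vertical) and a dashed line of equality. Purple marks the 758 of these genes whose steps differed at an adjusted p under 0.05, with Ctse below the line and Dpp4 above it.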

How the data were processed

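Libraries of total RNA from sorted mouse bone marrow cells were made with a stranded SMARTer Pico Input kit (Takara), per the labels. Reads were aligned with STAR 2.5.2b to mm10 and counted with HTSeq, per the submitters' processing notes, and the authors deposited raw counts per gene symbol. The annotation and the strand setting of the counting are not stated in the labels or file headers, so overlapping and antisense genes may share reads. Genes were filtered with filterByExpr (minimum count 10, minimum total 15) and scaled by TMM, and the 3 CFU-E and 3 BFU-E libraries were compared with edgeR 4.0.16 (quasi-likelihood F-test, and glmTreat for a change beyond 2-fold, log2 of 1) on R 4.3.3, with Benjamini-Hochberg adjustment at 0.05 over all genes tested. Every log2 fold change is CFU-E over BFU-E ± SE and every adjusted p comes from these fits. The WT step and its difference from the stage series were fitted the same way, and the scripts were tested on simulated data. Alternatives used DESeq2 1.42.0, limma-voom 3.58.1, RLE factors, library totals, other filters, a replicate block, all 38 libraries, and left-out libraries. The genes and lists were chosen with earlier results of these data known. Named genes are the 12 largest rises and falls, fixed genes of each list, the largest changes within each list and leading interaction genes; markers of low count come from the cell type lists, and some genes and lists are not reported here. Promoter stretches, from RefSeq on GRCm38.p6, were matched by exact symbol, for 8218 of the 10831 genes tested. Of the 24059 symbols in the counts, 22548 are RefSeq gene symbols and 1372 match only a RefSeq synonym. Counting intervals are exact 95% intervals and cover counting error only.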

Additional observations from a re-analysis of the deposited data

Results flagged for a closer look

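With all 5 CFU-E libraries taken as 1 group, 35 measures were checked for a single library far from the others, of which chance flags about 1 in 20, and 5 had one. CFU-E replicate 5 stood alone in the summed megakaryocyte and platelet markers (154 CPM), in Slc4a1 (126 CPM) and in Hba-a1 (112 CPM). CFU-E replicate 4 stood alone in Zfpm1 (332 CPM) and in Eng (108 CPM). Both libraries were outside the comparison. The step from BFU-E to CFU-E differed between the stage series and the WT libraries for 768 genes by edgeR's interaction test, Ctse, Gpr56, Dpp4 and Hmgn5 among them.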

How the results depend on the processing

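The count of 7303 genes was 7252 with DESeq2, 7303 with RLE factors, 7301 with limma-voom and 7747 with no filter on low counts. The 1148 genes beyond 2-fold became 926, 1149, 994 and 1302 under these settings. With library totals 7296 genes were called, 41.0% of them higher against 48.9% with TMM, and the median of all genes moved from -0.01 to -0.09. A filter at a mean of 5 CPM left 6438 and 752 genes, since fewer were tested. Leaving out 1 library gave 6756 to 7301 and 1084 to 1204 genes. Adding CFU-E replicates 4 and 5 gave 4031 and 749, fitting all 38 libraries together gave 380 and 148, and that fit with replicates 4 and 5 apart, added after seeing the data, gave 115 and 39 (the 2-fold calls were 52.0% and 79.5% higher, against 19.7%); the cause was not tested. The list counts without BFU-E replicate 2 were also added after seeing the data. Of the genes named in the text, 13 lost their call with CFU-E replicates 4 and 5 added, 2 reversed and 167 were unchanged. In the fit of all 38 libraries 100 lost their call, 2 reversed and 80 were unchanged. That fit with replicates 4 and 5 apart left 47 unchanged, and 135 lost their call.

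Deviations of same-numbered BFU-E and CFU-E libraries from their group means correlated at 0.053, -0.009 and 0.011, so no shared effect was seen. A replicate block gave 7342 and 1147 genes. The labels do not say whether same-numbered samples were paired, and these values cannot tell. In WT the block gave 7678 and library totals gave 7649 genes against 7632. The 768 genes whose step differed became 672 with DESeq2 and 781 with library totals. The share of called genes with CFU-E replicates 4 and 5 on the called side was 80.9%, and 81.0% with library totals. Reversed values were those of Psmb10 (0.0319 with replicates 4 and 5 added, 0.0721 with all 38 libraries), Rpl28 (0.81 and 0.83) and the median of GATA1 and KLF1 complex factors (-0.0371 with library totals); the cause was not tested. Depth limits genes with 3 counts or fewer in CFU-E, where only wide ratios can be given.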
